A study of Homo sapiens with 6 samples.

Results

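The 43 genes described here build, drive or time cell division: cyclins and CDK1, the mitotic kinases, the chromosomal passenger complex, the spindle checkpoint, kinetochore and centromere proteins, the activators of the anaphase promoting complex, mitotic kinesins, spindle proteins and cytokinesis factors. They were taken by gene name from a table of 60843 genes, and all 43 were found there. The samples were BJ cells, a normal human foreskin fibroblast line, taken through a chemical protocol meant to turn fibroblasts into neuron-like cells and profiled by bulk RNA sequencing with 2 libraries on each of days 0, 2 and 5. Day 0 cells had grown in DMEM with serum, day 2 cells had been in a neuronal induction medium with 10 µM forskolin, a direct activator of adenylyl cyclase, and day 5 cells had moved on day 2 to a maturation medium that still held forskolin. Every library carries the genotype label WT and the same word for treatment. Time, medium and drug change together over these days and cannot be told apart, since cells without forskolin were not analysed here beyond day 0. No label ties the 2 libraries of a day to separate dishes, and a p-value below therefore reflects just library to library spread, possibly a technical one.

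Most of these genes are transcribed in G2 and mitosis and are low in cells that have left the cycle. Their promoters are known for a short sequence, the cell cycle homology element, often placed close to CCAAT boxes, and complexes that contain B-MYB (MYBL2), FOXM1 or, in resting cells, the pocket proteins p107 and p130 (RBL1 and RBL2) act on them. Cells divide once cyclin B with CDK1 pushes them into mitosis, kinetochores attach chromosomes to spindle microtubules, the checkpoint waits for the last attachment, and CDC20 then switches on the anaphase promoting complex. In cultured fibroblasts the summed level of such transcripts is widely read as a measure of the cycling share of the culture, but in bulk RNA fewer cycling cells and less RNA per cycling cell cannot be told apart.

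The libraries held 23110171 and 26689416 counts in named genes on day 0, 24944887 and 27941919 on day 2, and 17599504 and 19306825 on day 5. A count of 3, taken as the floor, was worth 0.103 to 0.180 CPM (CPM, a library's counts put on a shared scale with TMM factors, the unit of every level below). The fibroblast marker list summed to between 23020 and 33198 CPM in the 6 libraries, with 6 of its 10 genes lower and 4 higher by day 2 and 7 lower and 3 higher by day 5; COL1A2 and COL3A1 rose by day 5 and VIM, THY1 and S100A4 fell. Among markers of other cells, ELAVL4 and STMN2 of neurons, TYR of melanocytes and 4 of 6 keratinocyte markers were at 0 in every library, and the endothelial marker CDH5 had no count in 5 of them. Of the 3 endothelial markers tested, KDR alone rose by day 5, from 3.71 and 4.61 CPM to 63.4 and 60.1 CPM, while TEK and VWF did not pass. Summed, the endothelial list went from 76.9 and 75.7 CPM on day 0 to 87.7 and 86.5 CPM on day 2 and 138 and 137 CPM on day 5. The leukocyte list, mostly CD14, was at 3.55 to 5.69 CPM on days 0 and 2 and at 0.480 and 0.491 CPM on day 5. Of 5 neuron markers tested, TUBB3 and MAP2 fell by day 5, SNAP25 rose from 5.76 and 6.01 CPM to 16.9 and 19.8 CPM, and SYN1 and SYP did not pass. Summed, that list went from 243 and 252 CPM on day 0 to 149 and 156 CPM on day 2 and 106 and 111 CPM on day 5. The melanocyte list, mostly PMEL, went from 2.05 and 1.75 to 6.54 and 8.11 and then 7.50 and 9.61 CPM. The keratinocyte list, which is nearly all KRT10, lay between 17.2 and 19.5 CPM on days 0 and 2 and at 35.3 and 37.3 CPM on day 5. The part of these cells in the results below was not tested.

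Together the 43 genes took 0.0413% and 0.0394% of the counts on day 0, 0.0164% and 0.0163% on day 2, and 0.0173% and 0.0171% on day 5. Their summed level was 377 and 362 CPM, then 171 and 169 CPM, then 183 and 180 CPM. Day 0 stood apart from both later days, and day 5 lay slightly above day 2. Each gene counts in this sum by its level, and the fall of ECT2 from day 2 to day 5 narrows the gap between those days. With 2 libraries against 2, an exact permutation test of such a sum cannot pass 0.05, and none was run.

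On day 2 most mitotic genes were low, and the fall was deep for a large share of them. In edgeR's quasi-likelihood test across 16327 genes, with an adjusted p under 0.05 as the threshold, 36 of the 43 fell from day 0 to day 2, where 33.4% of all tested genes were called lower, and 2 rose, ECT2 and KIF18A, where 33.4% were called higher (66.8% in either direction). Among those called lower, TTK passed the count filter only through its day 0 level and had to differ. SPC25 would also have failed that filter without its day 0 libraries, so its call is a description too. The 5 others, CENPE, CENPK, KIF23, MAD2L1 and SPC24, did not pass the test. The median log2 fold change over the 43 was -2.0, beside 0.0030 over all tested genes, and the range ran from -4.59 to 1.27. Both day 2 libraries lay below both day 0 libraries for 38 of the 43, where this held for 41.4% of tested genes, and above them for 2, where it held for 41.3%. A stricter test, for a change of more than 2-fold (glmTreat), called 25 of the 43 lower, against 5.54% of all tested genes, and none higher, against 6.99%.

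By day 5 the levels stood between those of the other days for many genes. From day 0 to day 5, 35 of the 43 fell, against 34.1% of all tested genes, KIF18A alone rose, against 35.8%, and 7 did not pass (69.9% of all tested genes were called in either direction). The 35 include TTK and SPC25, which passed the count filter only because of day 0. The median log2 fold change was -1.14, beside 0.045 over all genes. From day 2 to day 5, 23 rose, against 32.1% of all tested genes, 8 fell, against 33.7%, and 12 did not pass (65.8% of all genes called either way), with a median of 0.64 beside 0.0066. Both day 5 libraries lay below both day 0 libraries for 38 of the 43 (40.7% of tested genes) and above them for 1 (43.8%), and they lay above both day 2 libraries for 26 (41% of tested genes) and below them for 10 (41.4%). The test for more than 2-fold called 10 lower from day 0 to day 5, against 10.3% of all tested genes, and 1 higher, against 9.74%, and from day 2 to day 5 it called 11 higher, against 6.41%, and 1 lower, against 7.96%. Where a lost call is named below, the test for more than 2-fold is left aside. These comparisons share libraries, so their counts are not independent of each other.

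Over the 3 days the genes followed a few courses. In 17 genes the level fell by day 2, rose again by day 5 and was still below day 0: BUB1, BUB1B, CCNB1, CCNB2, CDC20, CDCA8, CDK1, CENPF, KIF20A, KIF2C, KIF4A, MKI67, NDC80, PLK1, SPC25, TOP2A and UBE2C. In 6 more, ASPM, CDC25C, DLGAP5, HMMR, KIF11 and NUF2, it fell and rose, and day 5 did not differ from day 0 in the test. A continued decline, called in each step, was seen in ANLN, AURKA, INCENP and PTTG1. In 9 genes (AURKB, BIRC5, CCNA2, CDCA3, CENPA, NUSAP1, PRC1, TPX2 and TTK) the fall by day 2 was called, day 5 was below day 0, and days 2 and 5 did not differ in the test. CENPK, KIF23 and SPC24 fell only after day 2 in the calls, CENPE was called only between days 0 and 5, MAD2L1 in no comparison, and ECT2 and KIF18A each had a course of their own. By the mean of the 2 libraries, day 2 was the lowest day for 28 of the 43 and day 5 for 14.

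**Figure D1:**
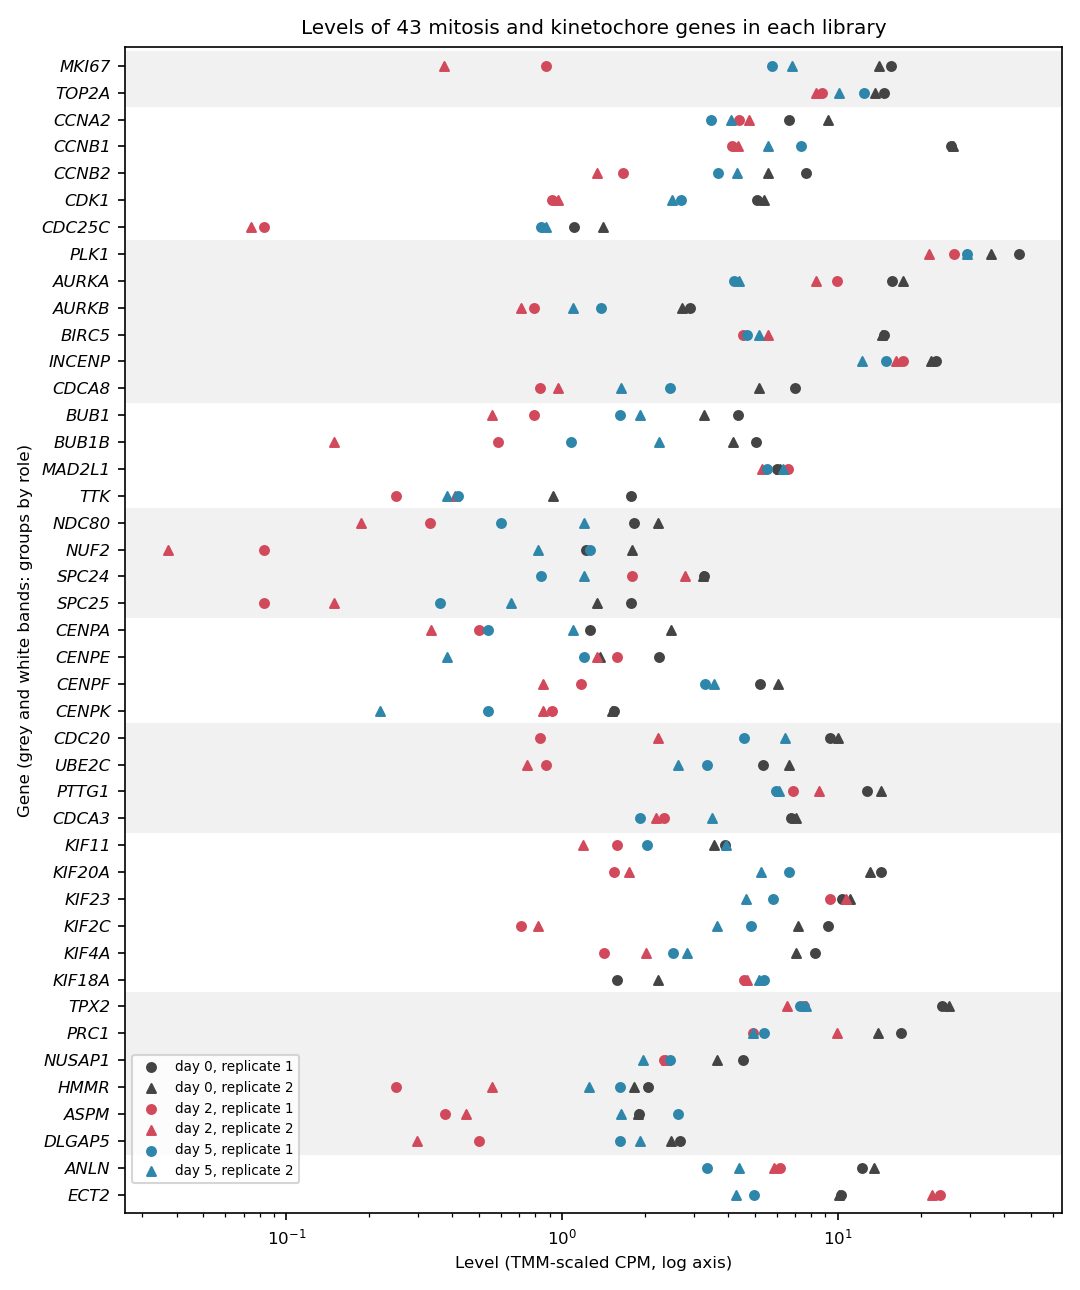
Level of each of the 43 genes in every library, in TMM-scaled CPM on a log axis, with genes grouped by role in grey and white bands; colours are days and shapes are replicates. For 38 genes both day 2 libraries sit left of both day 0 libraries, while ECT2 and KIF18A sit to the right and CENPE, KIF23 and MAD2L1 do not separate.

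Promoter sequence was shared widely among these genes. RefSeq windows from 250 bases before to 50 bases after the annotated start (GRCh38.p14) were at hand for 38 of the 43, all but AURKA, BIRC5, TPX2, TTK and UBE2C. The cell cycle homology element was searched as TTTGAA or TTCGAA and the CCAAT box as CCAAT, each on both strands. Where a gene had several windows, only the first listed was searched, so a gene without a match may hold one at another start. The element was in 28 of the 38 windows (73.68%), in 16.62% of the windows of 27305 genes and in 11.54% of those of the 11257 tested genes with a window. CCAAT was in 31 of the 38 (81.58%), against 35.7% and 36.36%, and both were in 24 of the 38 (63.16%), against 6.581% and 4.806%. The stretches below, all upstream of the start and given on the gene's strand, show both motifs side by side in genes with unlike courses. By day 2 MKI67 fell the most of those shown, TOP2A fell little and ECT2 rose. CDC20 and CDK1 fell and partly returned, and ASPM returned to its day 0 level. Capitals mark the element (TTTGAA, or TTCAAA where it lies on the other strand) and the CCAAT box (CCAAT, or ATTGG on the other strand); in MKI67 an element and a CCAAT box overlap in TTTGAATTGG.
MKI67, chr10:128126424-128126593, minus strand: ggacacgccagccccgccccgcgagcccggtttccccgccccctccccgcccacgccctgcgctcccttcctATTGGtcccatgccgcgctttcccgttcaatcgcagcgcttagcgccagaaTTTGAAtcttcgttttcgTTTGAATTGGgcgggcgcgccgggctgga
CDC20, chr1:43358811-43358954, plus strand: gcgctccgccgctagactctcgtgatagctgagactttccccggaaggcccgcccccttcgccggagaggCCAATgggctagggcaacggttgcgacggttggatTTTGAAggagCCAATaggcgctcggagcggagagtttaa
CDK1, chr10:60778161-60778330, plus strand: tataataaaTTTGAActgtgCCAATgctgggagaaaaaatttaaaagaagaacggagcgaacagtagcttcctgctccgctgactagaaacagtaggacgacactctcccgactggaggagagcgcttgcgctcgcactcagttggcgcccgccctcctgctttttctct
TOP2A, chr17:40417951-40418066, minus strand: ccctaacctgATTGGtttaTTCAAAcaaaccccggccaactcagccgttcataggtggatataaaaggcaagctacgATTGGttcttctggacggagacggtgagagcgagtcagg
ASPM, chr1:197146695-197146839, minus strand: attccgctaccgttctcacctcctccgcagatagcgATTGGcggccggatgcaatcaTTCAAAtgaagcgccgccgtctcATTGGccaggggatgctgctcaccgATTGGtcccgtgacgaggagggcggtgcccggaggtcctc
ECT2, chr3:172750556-172750681, plus strand: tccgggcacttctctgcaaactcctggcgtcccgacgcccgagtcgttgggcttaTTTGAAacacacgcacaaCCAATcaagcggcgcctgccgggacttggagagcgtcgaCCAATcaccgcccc

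Genes with and without a match are set side by side here with no test. From day 0 to day 2 the median log2 fold change was -2.16 over the 28 genes with the element, of which 24 fell, and -1.36 over the 10 with a window and no match, of which 7 fell. From day 0 to day 5 the medians were -0.95 and -1.20, and 21 of the 28 and 9 of the 10 fell. The 10 without a match were AURKB, CCNA2, CCNB1, CDC25C, CENPE, CENPK, KIF20A, KIF2C, PTTG1 and SPC24, and both genes that rose by day 2, ECT2 and KIF18A, held the element and a CCAAT box. A match is a description of letters in this window and not a bound site.

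**Figure D2:**
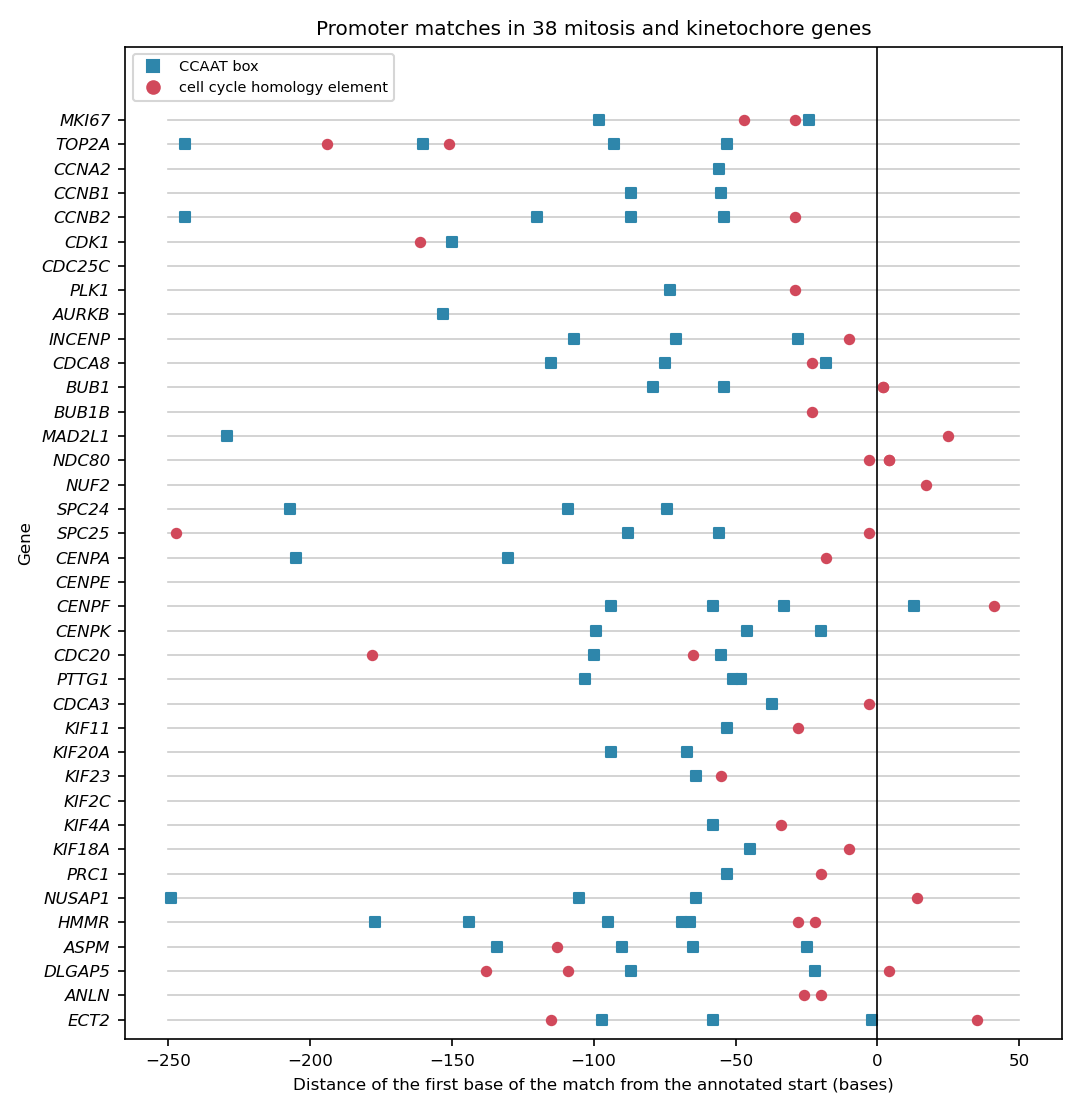
Positions of the cell cycle homology element (red circles) and the CCAAT box (blue squares) on either strand in the promoter windows of 38 genes, as the distance in bases of the first base of each match from the annotated start (vertical line). The element was found in 28 windows and CCAAT in 31. In the 100 bases upstream of the start began 21 of 40 element matches and 49 of 69 CCAAT matches. TTCGAA reads the same on both strands, so its sites in BUB1 and NDC80 are counted on each strand among the 40.

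The proliferation marker and the topoisomerase of mitotic chromosomes moved by very unequal amounts. MKI67 (chr10:128096659-128126385, minus strand), which encodes the antigen Ki-67 that coats mitotic chromosomes, was at 15.5 and 14.1 CPM on day 0, 0.875 and 0.372 CPM on day 2, and 5.76 and 6.82 CPM on day 5. The 3 days did not overlap. Its log2 fold change was -4.59 ± 0.23 (SE; edgeR adjusted p = 1.34e-11) from day 0 to day 2, the lowest of the 43, and 3.36 ± 0.26 (edgeR adjusted p = 5.45e-09) from day 2 to day 5, when it reached 42.5% of its day 0 level. TOP2A (chr17:40388516-40417950, minus strand), topoisomerase II alpha, which untangles sister chromatids, was at 14.7 and 13.6, then 8.75 and 8.33, then 12.5 and 10.1 CPM. Its day 2 level was 60.5% of day 0 and its day 5 level 79.9%, both far above the share that MKI67 kept. The log2 fold change of TOP2A was -0.73 ± 0.12 by day 2 (edgeR adjusted p = 5.07e-05) and -0.33 ± 0.12 by day 5 (edgeR adjusted p = 0.0266). The day 5 call of TOP2A did not hold when day 0 replicate 1 (edgeR adjusted p = 0.13) or day 5 replicate 2 (0.277) was left out, and its rise after day 2 without day 2 replicate 2 (0.0699) or day 5 replicate 1 (0.186).

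All 5 genes of the entry switch into mitosis fell by day 2, and 4 of the 5 rose after it. CCNB1 (chr5:69167010-69178245, plus strand), cyclin B1, was at 25.8 and 26.2 CPM on day 0, 4.12 and 4.35 CPM on day 2, and 7.32 and 5.57 CPM on day 5. On the log2 scale it changed by -2.61 ± 0.12 (edgeR adjusted p = 6.03e-12) by day 2 and -2.02 ± 0.12 (edgeR adjusted p = 1.56e-10) by day 5, so it regained little: 24.8% of day 0 after 16.3%. Its partner kinase CDK1 (chr10:60778331-60794852, plus strand) was at 5.09 and 5.40, then 0.916 and 0.967, then 2.70 and 2.51 CPM. CDK1 thus stood at 18% of day 0 on day 2 and at 49.7% on day 5, a log2 change of 1.46 ± 0.27 between them (edgeR adjusted p = 0.000126). CCNB2, cyclin B2, went from 7.65 and 5.57 to 1.67 and 1.34 CPM and back to 3.66 and 4.31 CPM.

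Cyclin A2 and the phosphatase CDC25C sat at opposite ends of this group. CCNA2, which acts with CDK2 and CDK1 in S phase and G2, was at 6.63 and 9.21 CPM on day 0, 4.37 and 4.76 CPM on day 2 and 3.48 and 4.09 CPM on day 5. From day 2 to day 5 it changed by -0.27 ± 0.21 on the log2 scale and did not pass (edgeR adjusted p = 0.262). CDC25C, which activates CDK1 by removing inhibitory phosphates, was at 1.10 and 1.41 CPM on day 0 and at 0.0833 and 0.0744 CPM on day 2, under the floor of 3 counts in both libraries. It was at 0.840 and 0.873 CPM on day 5, where the log2 fold change against day 0, -0.55 ± 0.45, did not pass (edgeR adjusted p = 0.286). A pair of the calls rest on 1 library each: the rise of CCNB1 after day 2 ended when day 5 replicate 1 was left out (edgeR adjusted p = 0.0693), and the day 5 call of CCNB2 without day 0 replicate 1 (0.101).

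The mitotic kinases and the passenger complex all fell by day 2 and were all below day 0 on day 5. PLK1 (chr16:23677656-23690367, plus strand), the polo kinase of centrosome maturation and mitotic entry, was at 45.5 and 35.8 CPM on day 0, 26.3 and 21.5 CPM on day 2, and 29.4 CPM in both day 5 libraries. Its fall was shallow, -0.77 ± 0.10 in log2 (edgeR adjusted p = 4.8e-06), and its level per kilobase of the deposited gene length was the highest of the 43 on day 0, 18.8 CPM per kb. AURKA (chr20:56369389-56392337, minus strand), the kinase of centrosomes and spindle poles, went steadily down, from 15.7 and 17.2 CPM to 9.95 and 8.30 CPM and then to 4.20 and 4.37 CPM. The log2 fold change of AURKA was -0.86 ± 0.12 by day 2 and -1.09 ± 0.15 from day 2 to day 5 (edgeR adjusted p = 6.96e-06 and 7.02e-06), ending at 26.0% of day 0. PLK1 shares 11.62% of its exon bases with AC008870.3 on the other strand. Its rise from day 2 to day 5, 0.31 ± 0.11 (edgeR adjusted p = 0.0259), was lost under DESeq2 (adjusted p = 0.19) and without day 2 replicate 2 (0.29), day 5 replicate 1 (0.0784) or day 5 replicate 2 (0.0804).

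The 4 passenger complex genes, whose products sit at centromeres and then at the midzone, fell by different amounts although the proteins form 1 complex. AURKB, the kinase subunit, was at 2.92 and 2.71 CPM on day 0, 0.791 and 0.707 CPM on day 2 and 1.38 and 1.09 CPM on day 5. BIRC5, survivin, was at 14.7 and 14.4, then 4.54 and 5.58, then 4.68 and 5.19 CPM, so days 2 and 5 overlapped, at means of 34.8% and 33.9% of day 0. CDCA8, borealin, fell furthest, from 6.98 and 5.19 CPM to 0.833 and 0.967 CPM, and was at 2.46 and 1.64 CPM on day 5. INCENP, the scaffold, fell least, from 22.6 and 21.8 CPM to 17.2 and 16.3 CPM and then to 14.9 and 12.2 CPM. By day 2 the log2 fold changes were -1.91 ± 0.32 for AURKB, -1.52 ± 0.14 for BIRC5, -2.74 ± 0.27 for CDCA8 and -0.41 ± 0.10 for INCENP, each past the test (the highest edgeR adjusted p was 0.00121, for INCENP). The further fall of INCENP after day 2 ended when day 2 replicate 1 (edgeR adjusted p = 0.0812) or day 5 replicate 2 (0.269) was left out, and the rise of CDCA8 without day 5 replicate 1 (0.0592).

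Among spindle checkpoint genes, BUB1 and BUB1B fell by day 2, MAD2L1 did not pass, and TTK was called lower after passing the count filter through day 0 alone, so its call is given as a description. BUB1, a kinase that recruits checkpoint proteins to kinetochores, was at 4.34 and 3.26 CPM on day 0, 0.791 and 0.558 CPM on day 2 and 1.62 and 1.91 CPM on day 5. BUB1B, which encodes BUBR1, part of the inhibitor that holds CDC20, was at 5.05 and 4.16, then 0.583 and 0.149, then 1.08 and 2.24 CPM, a log2 fold change of -3.67 ± 0.43 by day 2 (edgeR adjusted p = 8.98e-07). TTK, the MPS1 kinase at the head of the checkpoint, was at 1.78 and 0.928 CPM on day 0, 0.25 and 0.409 CPM on day 2 and 0.420 and 0.382 CPM on day 5. MAD2L1 (chr4:120055608-120067074, minus strand), which encodes MAD2, the protein that binds CDC20, was at 6.0 and 6.19, then 6.58 and 5.28, then 5.52 and 6.33 CPM. All 3 days of MAD2L1 overlapped, and its log2 fold change was -0.04 ± 0.16 by day 2 (edgeR adjusted p = 0.829) and -0.04 ± 0.17 by day 5 (edgeR adjusted p = 0.851). The calls of TTK ended when day 0 replicate 1 was left out (edgeR adjusted p = 0.0892 for day 2 and 0.163 for day 5) and, for day 5, without day 5 replicate 2 (0.0593). BUB1B shares 10.21% of its exon bases with the readthrough gene BUB1B-PAK6.

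The 4 genes of the NDC80 complex, the kinetochore's grip on microtubules, split: NDC80, NUF2 and SPC25 fell steeply and SPC24 did not pass by day 2. SPC25 passed the count filter only because of its day 0 libraries, so its falls from day 0 are given as a description. NDC80 was at 1.81 and 2.23 CPM on day 0, 0.333 and 0.186 CPM on day 2 and 0.600 and 1.20 CPM on day 5. SPC25 was at 1.78 and 1.34, then 0.0833 and 0.149, then 0.360 and 0.655 CPM. Its day 2 replicate 1 lay under the floor of 3 counts. NUF2 (chr1:163266576-163355764, plus strand) was at 1.22 and 1.79 CPM on day 0, 0.0833 and 0.0372 CPM on day 2, and 1.26 and 0.819 CPM on day 5, where it overlapped day 0. The day 2 level of NUF2 rests on 3 counts over both libraries beside 83 on day 0, a ratio of 25.9 of day 0 over day 2 with a 95% interval of 8.55 to 128 from counting error only. SPC24 (chr19:11131520-11155808, minus strand) was at 3.27 and 3.23, then 1.79 and 2.79, then 0.840 and 1.20 CPM.

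The later steps of these 4 genes differed too. SPC24 had a log2 fold change of -0.50 ± 0.27 by day 2 (edgeR adjusted p = 0.116) and -1.16 ± 0.33 from day 2 to day 5 (edgeR adjusted p = 0.00538), while NDC80, NUF2 and SPC25 rose in that step by 1.80 ± 0.55, 4.01 ± 0.71 and 2.07 ± 0.70. The fitted change of NUF2 depends on the prior count and is no bound. At these low counts single libraries decided several calls. The rise of NDC80 needed both day 2 replicate 2 (edgeR adjusted p = 0.0665 when it was left out) and day 5 replicate 2 (0.144), and its day 5 call under DESeq2 (0.055) and without day 0 replicate 2 (0.149) or day 5 replicate 1 (0.176). For SPC25 the rise ended when day 2 replicate 1 (edgeR adjusted p = 0.0885) or day 5 replicate 2 (0.157) was left out, and the day 5 call without day 0 replicate 1 (0.0902) or day 5 replicate 1 (0.0894). SPC24 was called lower by day 2 without day 2 replicate 2 (edgeR adjusted p = 0.0411) and under scaling to library totals (0.0346), and its later fall was lost without day 2 replicate 2 (0.0872).

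Centromere and corona genes fell in 2 of 4 cases by day 2 and in all 4 by day 5. CENPA, the histone H3 variant that marks centromeres, was at 1.26 and 2.47 CPM on day 0, 0.50 and 0.335 CPM on day 2 and 0.540 and 1.09 CPM on day 5. CENPF, a large corona protein of G2 and mitosis, was at 5.21 and 6.08, then 1.17 and 0.856, then 3.30 and 3.55 CPM, a log2 change of -2.49 ± 0.24 by day 2 (edgeR adjusted p = 7.08e-08). CENPE, the kinesin that brings chromosomes to the metaphase plate, was at 2.25 and 1.37, then 1.58 and 1.34, then 1.20 and 0.382 CPM, so day 2 overlapped day 0. CENPK, a subunit of the constitutive centromere network, was at 1.54 and 1.51, then 0.916 and 0.856, then 0.540 and 0.218 CPM. Its log2 fold change was -0.78 ± 0.41 by day 2 (edgeR adjusted p = 0.107) and -2.01 ± 0.50 by day 5 (edgeR adjusted p = 0.00175), and the day 2 value passed under scaling to library totals (0.0481).

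Single libraries or tools changed the calls of each of these 4 genes. CENPA was not called lower on day 5 under DESeq2 (adjusted p = 0.0656) or without day 0 replicate 2 (0.399) or day 5 replicate 1 (0.206). CENPE was not called on day 5 without day 0 replicate 1 (0.22) or day 5 replicate 2 (0.283), and it was called lower from day 2 to day 5 without day 5 replicate 1 (0.00991) or with no count filter (0.0459). CENPF was not called on day 5 without day 0 replicate 2 (0.0667). The fall of CENPK from day 2 to day 5 (edgeR adjusted p = 0.0491) was lost in 9 alternatives, among them each single library left out except day 5 replicate 1, with adjusted p from 0.0538 to 0.314.

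The 4 genes tied to the anaphase promoting complex, the ubiquitin ligase that ends mitosis, all fell by day 2. CDC20 (chr1:43358955-43363203, plus strand), its mitotic activator, was at 9.35 and 9.97 CPM on day 0, 0.833 and 2.23 CPM on day 2 and 4.56 and 6.44 CPM on day 5. UBE2C, its ubiquitin-conjugating enzyme, was at 5.36 and 6.63, then 0.875 and 0.744, then 3.36 and 2.62 CPM. By day 2 the log2 fold changes were -2.63 ± 0.27 for CDC20 (edgeR adjusted p = 1.71e-07) and -2.89 ± 0.25 for UBE2C (edgeR adjusted p = 2.16e-08), and both genes rose from day 2 to day 5. PTTG1, securin, the separase inhibitor that the complex destroys, was at 12.7 and 14.3, then 6.87 and 8.52, then 5.94 and 6.11 CPM, a log2 change of -0.81 ± 0.13 by day 2 (edgeR adjusted p = 3.78e-05). CDCA3, a mitotic entry factor and a substrate of the complex, was at 6.75 and 7.05, then 2.33 and 2.20, then 1.92 and 3.49 CPM. The small fall of PTTG1 from day 2 to day 5 (-0.36 ± 0.15, edgeR adjusted p = 0.0494) was lost in 9 alternatives, with adjusted p from 0.0546 to 0.367, among them each of 5 single libraries left out (all but day 2 replicate 1). The day 5 call of CDC20 was lost under DESeq2 (adjusted p = 0.161) and without day 5 replicate 1 (0.062), and CDCA3 was called higher from day 2 to day 5 without day 5 replicate 1 (0.0376).

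Of 6 mitotic kinesins, 4 fell by day 2, KIF23 did not pass and KIF18A rose. KIF2C, which encodes MCAK, the microtubule-destabilising kinesin of centromeres, was at 9.19 and 7.18 CPM on day 0, 0.708 and 0.819 CPM on day 2, and 4.86 and 3.66 CPM on day 5, a log2 fold change of -3.41 ± 0.24 and then 2.46 ± 0.27 (edgeR adjusted p = 1.58e-09 and 3.99e-07). KIF20A, the kinesin that carries the passenger complex to the midzone, was at 14.4 and 13.1, then 1.54 and 1.75, then 6.66 and 5.24 CPM. KIF11, the Eg5 motor that pushes spindle poles apart, was at 3.91 and 3.54, then 1.58 and 1.19, then 2.04 and 3.93 CPM, with 1 day 5 library at the day 0 level and the other below it. KIF4A, a chromokinesin, was at 8.28 and 7.05, then 1.42 and 2.01, then 2.52 and 2.84 CPM. Without day 5 replicate 2, KIF11 was called lower on day 5 than on day 0 (edgeR adjusted p = 0.0272) and its rise after day 2 was lost (0.181). The rise of KIF4A after day 2 (0.64 ± 0.25, edgeR adjusted p = 0.0318) was lost in 5 alternatives, among them DESeq2 (0.0808), no day 2 replicate 1 (0.22) and no day 5 replicate 2 (0.138).

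KIF23 and KIF18A stood apart from the other kinesins on day 2. KIF23 (chr15:69414246-69448427, plus strand), the motor of centralspindlin at the midbody, was at 10.4 and 11.1 CPM on day 0, 9.33 and 10.7 CPM on day 2, and 5.82 and 4.64 CPM on day 5. Its days 0 and 2 overlapped (log2 fold change -0.10 ± 0.13, edgeR adjusted p = 0.524), and it changed by -0.94 ± 0.15 in log2 from day 2 to day 5 (edgeR adjusted p = 3.44e-05). KIF18A (chr11:28020620-28108308, minus strand), the kinesin that dampens chromosome oscillations at the plate, was at 1.58 and 2.23 CPM on day 0, 4.58 and 4.69 CPM on day 2, and 5.40 and 5.19 CPM on day 5. Both later days lay above day 0, with log2 fold changes of 1.27 ± 0.21 (edgeR adjusted p = 5.52e-05) and 1.46 ± 0.22 (edgeR adjusted p = 1.43e-05), and days 2 and 5 did not differ in the test (edgeR adjusted p = 0.418). KIF18A shares 1.307% of its exon bases with METTL15 on the other strand.

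All 6 spindle assembly genes fell by day 2, and 3 of them were not called against day 0 on day 5. ASPM (chr1:197084128-197146694, minus strand), a spindle pole protein, was at 1.89 CPM in both day 0 libraries, 0.375 and 0.446 CPM on day 2, and 2.64 and 1.64 CPM on day 5. Day 5 of ASPM spanned the day 0 level, at 113% of it on average, a log2 change of 0.17 ± 0.34 (edgeR adjusted p = 0.669). HMMR, a spindle protein also known as a hyaluronan receptor, was at 2.05 and 1.82, then 0.25 and 0.558, then 1.62 and 1.26 CPM. DLGAP5, which encodes HURP, a stabiliser of kinetochore fibres, was at 2.68 and 2.47, then 0.50 and 0.298, then 1.62 and 1.91 CPM. Both were below day 0 in each day 5 library, and neither passed the test there (edgeR adjusted p = 0.321 and 0.14), but DLGAP5 passed under scaling to library totals (0.0464).

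The other 3 spindle genes stayed low from day 2 on. TPX2, which activates AURKA on the spindle, was at 23.8 and 25.2 CPM on day 0, 7.54 and 6.55 CPM on day 2, and 7.26 and 7.64 CPM on day 5. Its log2 fold change was -1.80 ± 0.11 by day 2 (edgeR adjusted p = 1.32e-10) and 0.09 ± 0.13 after that (edgeR adjusted p = 0.582). NUSAP1, a microtubule-bundling protein, was at 4.54 and 3.64, then 2.33 and 2.38, then 2.46 and 1.97 CPM, and its call on day 2 did not hold when day 0 replicate 1 was left out (edgeR adjusted p = 0.0674). PRC1, the crosslinker of midzone microtubules, was at 17 and 14.0 CPM on day 0, 4.91 and 9.93 CPM on day 2 and 5.40 and 4.91 CPM on day 5, so its day 2 libraries differed from each other. Without day 2 replicate 1 (edgeR adjusted p = 0.000137) or with no count filter (0.00128), PRC1 was called lower from day 2 to day 5. NUSAP1 shares 62.16% and PRC1 57.57% of exon bases with another annotated gene on the same strand, so the split of their reads is uncertain.

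The 2 cytokinesis genes went opposite ways by day 2 and both were low on day 5. ANLN (chr7:36389806-36453791, plus strand), anillin, the scaffold of the contractile ring, was at 12.2 and 13.5 CPM on day 0, 6.16 and 5.88 CPM on day 2, and 3.36 and 4.37 CPM on day 5. ECT2 (chr3:172750682-172821474, plus strand), the exchange factor that activates RhoA at the cleavage furrow, was at 10.3 and 10.1 CPM on day 0, 23.5 and 21.9 CPM on day 2, and 4.98 and 4.26 CPM on day 5. No 2 days of ECT2 overlapped. Its log2 fold change was 1.16 ± 0.10 by day 2 (edgeR adjusted p = 2.55e-08) and -2.30 ± 0.12 from day 2 to day 5 (edgeR adjusted p = 3.18e-11), the lowest of the 43 in that step, where ANLN had -0.63 ± 0.17 (edgeR adjusted p = 0.0035). These directions held in all 16 alternatives, but the rise of ECT2 by day 2 was not shown to exceed 2-fold.

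**Figure D3:**
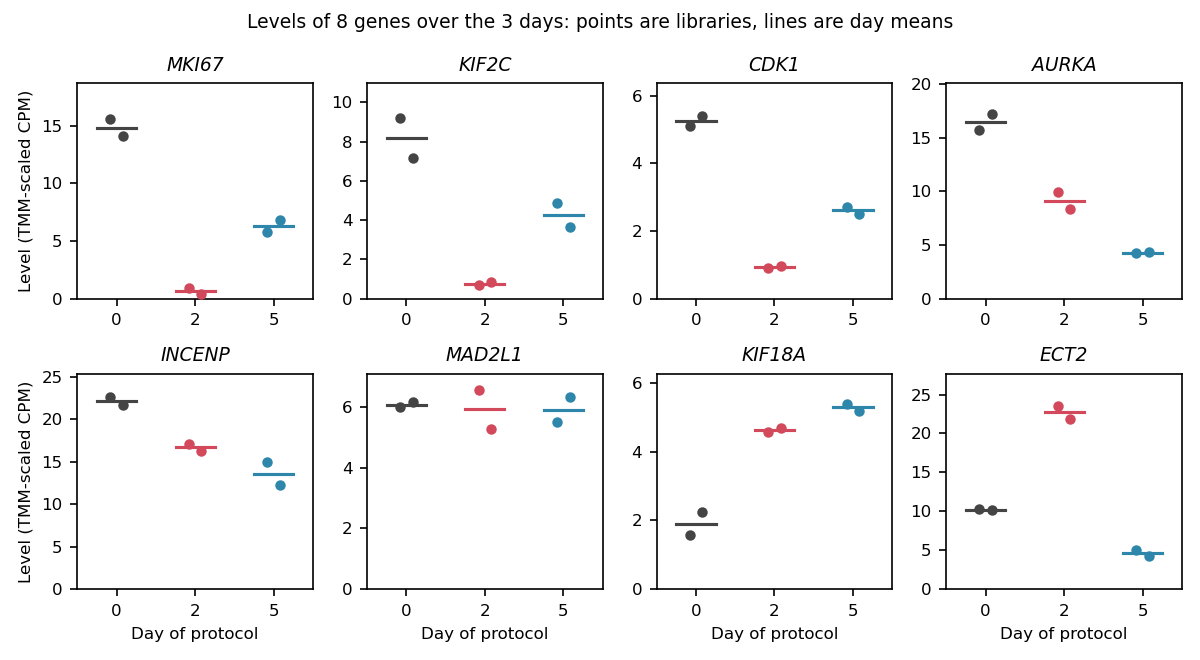
Level in TMM-scaled CPM of 8 genes by day of protocol, each panel from 0; points are the 2 libraries of a day and lines their mean. MKI67, KIF2C and CDK1 dip on day 2 and partly return, AURKA and INCENP decline, MAD2L1 overlaps on all days, KIF18A stays above day 0, and ECT2 peaks on day 2 at 23.5 and 21.9 CPM.

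**Figure D4:**
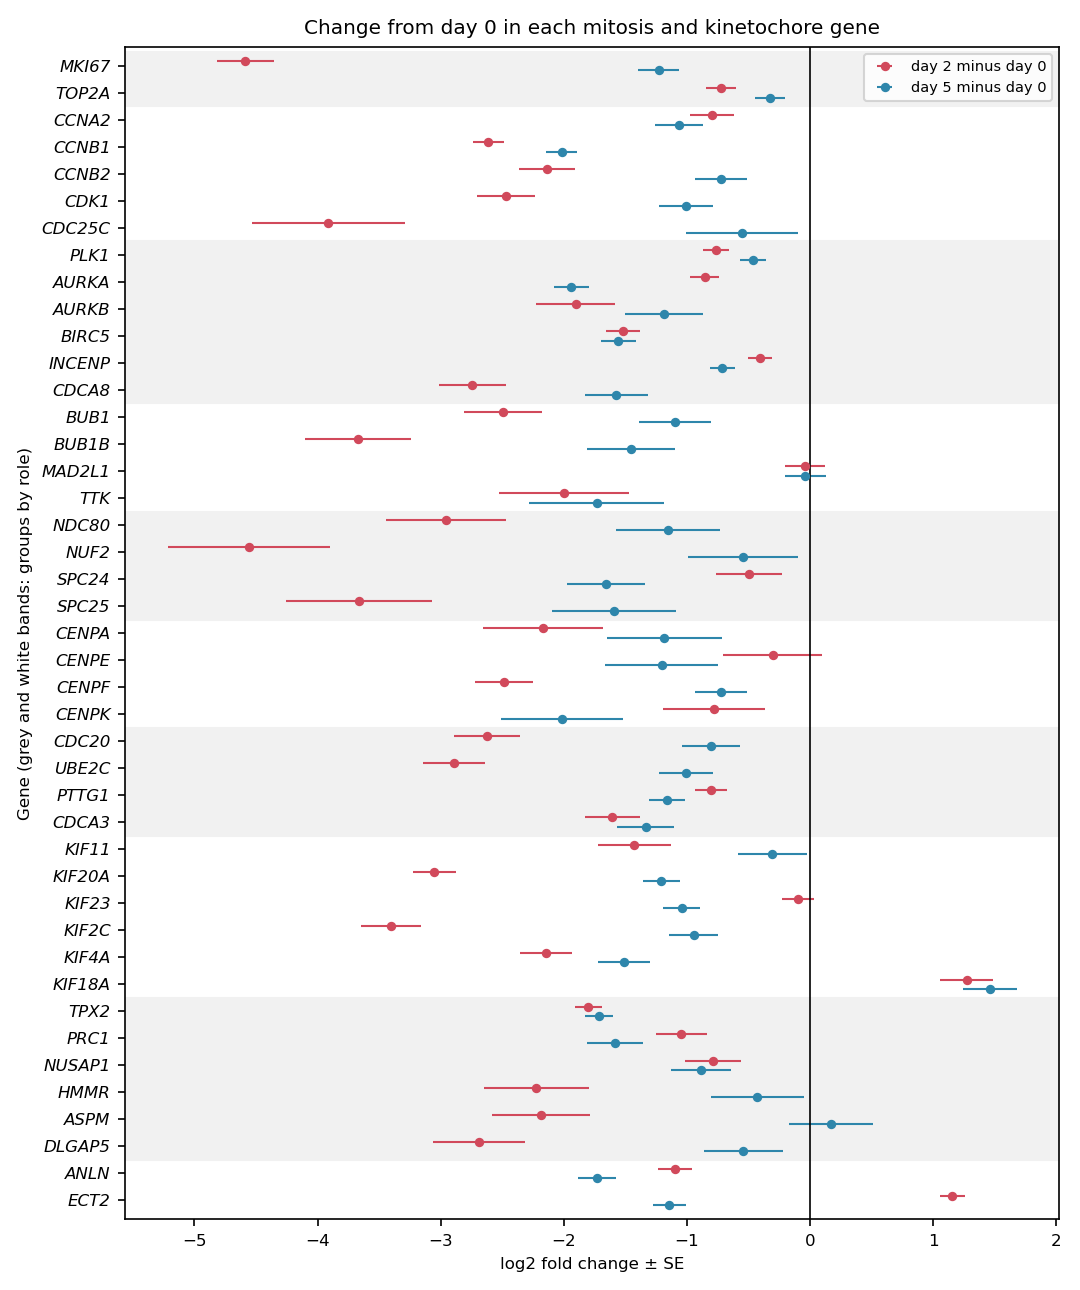
The log2 fold change against day 0 of each of the 43 genes with its standard error, for day 2 (red) and day 5 (blue), grouped by role; both comparisons share the day 0 libraries. Day 2 values run from -4.59 for MKI67 to 1.27 for KIF18A, and most day 5 values lie nearer to 0.

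Levels between genes can be compared only per length. On day 0 the mean level per kilobase was highest for PLK1 (18.8 CPM per kb), CCNB1 (12.8), PTTG1 (12.6), UBE2C (7.72) and AURKA (7.59), and lowest for ASPM (0.174) and CENPE (0.212). The genes of low level carry wide errors: CDC25C, TTK, NDC80, NUF2 and SPC25 were below the filter level of 0.416 CPM in both day 2 libraries, and 30 of the 43 were at or above it in every library.

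The proteins that transcribe or repress mitotic genes did not move as a block, with 8 of 19 tested regulators lower and 4 higher by day 2 and 5 lower and 8 higher by day 5. Over all tested genes 33.4% were lower and 33.4% higher by day 2, and 34.1% and 35.8% by day 5 (the regulators: 42.1% and 21.1%, then 26.3% and 42.1%). Counts of the lists that follow stand against these shares. FOXM1, the forkhead factor of G2 genes, was at 21.9 and 21.1 CPM on day 0, 7.25 and 6.77 CPM on day 2 and 4.32 and 2.89 CPM on day 5 (log2 fold change -1.61 ± 0.13 and -2.58 ± 0.15 against day 0). MYBL2, B-MYB, was at 5.05 and 5.46, then 0.458 and 0.819, then 1.38 and 0.819 CPM (-3.02 ± 0.31 and -2.27 ± 0.31). Neither was called higher after day 2. FOXM1 changed by a further -0.97 ± 0.17 in log2 (edgeR adjusted p = 8.91e-05). The estimate for MYBL2 was a rise that did not pass (0.75 ± 0.39, edgeR adjusted p = 0.102). Over the alternatives it ran from 0.34 to 1.23, and it passed without day 2 replicate 2 or day 5 replicate 2. E2F1 and the repressor E2F7 fell in each step, with log2 fold changes against day 0 of -1.23 ± 0.18 and -1.18 ± 0.14 on day 2 and of -2.44 ± 0.22 and -3.27 ± 0.19 on day 5.

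Repressors of the pocket protein family rose, apart from RBL1. RB1 was at 22.4 and 19.2 CPM on day 0, 42.8 and 41.4 CPM on day 2 and 54.5 and 53.8 CPM on day 5. RBL2, p130, was at 37.2 and 36.2, then 99.9 and 96.9, then 68.1 and 70.3 CPM, a log2 fold change of 1.42 ± 0.05 by day 2 (edgeR adjusted p = 4.92e-14). RBL1, p107, which is itself high in cycling cells, fell from 3.35 and 3.30 CPM to 1.04 CPM in both day 2 libraries and was at 2.46 and 2.07 CPM on day 5. LIN54, the subunit that binds the cell cycle homology element, rose from 6.55 and 6.5 CPM to 11.5 and 11.1 CPM. TFDP2, the E2F partner DP2, rose from 34.5 and 33.1 CPM to 39.1 and 40.2 CPM, a call lost under scaling to library totals (edgeR adjusted p = 0.484), and to 70.4 and 67.5 CPM on day 5. The medians of the 19 regulators were -0.15 and 0.19 against day 0, and scaling to library totals turned the second to -0.02, with 6 lower and 4 higher.

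CDK inhibitors and D cyclins, which gate entry into the cycle, moved in both directions on each day, with 4 lower and 5 higher of 10 by day 2 and 5 and 5 by day 5. With 10 genes these shares (40% and 50%, then 50% and 50%) are not read as a result about the list. CDKN1B, p27, rose from 24.7 and 23.5 CPM to 58.9 and 61.2 CPM and stayed at 53.4 and 53.9 CPM. CDKN1A, p21, stood on opposite sides of day 0 on days 2 and 5 (log2 fold change 1.28 ± 0.02 and -1.04 ± 0.02), while CDKN1C, p57, was higher on both (2.37 ± 0.08 and 4.79 ± 0.07). CCND3, cyclin D3, fell from 196 and 199 CPM to 111 and 108 CPM and then to 44.0 and 46.4 CPM.

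Outside the 43, other centromere and kinetochore genes had medians nearer to 0. Of 19 other centromere genes, 14 fell and 2 rose by day 2 (median log2 fold change -0.83), and 11 fell and 2 rose by day 5 (median -0.52). CENPT, which links centromeric chromatin to the outer kinetochore, fell from 61.7 and 66.1 CPM to 24.9 and 25.0 CPM, and HJURP, the chaperone of CENPA, from 5.17 and 5.53 CPM to 1.75 and 2.05 CPM. Of 16 tested other kinetochore and checkpoint genes, 11 fell and 2 rose by day 2 (median -0.56), and 11 fell and 1 rose by day 5 (median -0.76). ZWINT, a partner of the outer kinetochore, fell from 14.2 and 13.9 CPM to 2.33 and 2.42 CPM and did not return, at 1.56 and 2.40 CPM on day 5, while MIS12 rose on both days (0.72 ± 0.13 and 0.92 ± 0.13).

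The core of the anaphase promoting complex, listed together with its activator FZR1, had medians close to 0. Of these 15 genes 8 fell (53.3%, against 33.4% of all tested genes) and 1 rose by day 2 (median log2 fold change -0.20), and 7 fell (46.7%, against 34.1%) and 2 rose by day 5 (median -0.12). FZR1 was among those that fell on both days. The largest change among the named subunits by day 2 was that of ANAPC7, from 37.3 and 36.7 CPM to 19.3 and 21.0 CPM. CDC16 fell from 88.8 and 89.0 CPM to 60.3 and 62.3 CPM and to 44.7 CPM in both day 5 libraries, a log2 change of -0.99 ± 0.05 (edgeR adjusted p = 7.3e-12). Scaling to library totals gave 10 lower and 0 higher on both days, where it called 42.3% of all tested genes lower and 26% higher on day 2 and 42.3% and 27% on day 5.

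Condensin and cohesin, the rings that fold and hold chromatids, gave calls in both directions. By day 2, 7 of 19 were lower and 10 higher (36.8% and 52.6%, against 33.4% each way over all tested genes, median 0.45). By day 5, 10 were lower and 7 higher (52.6% and 36.8%, against 34.1% and 35.8%, median -0.18). Scaling to library totals gave 11 lower and 4 higher on day 5, where it called 42.3% and 27% of all tested genes. The cohesin regulator PDS5B rose from 16.6 and 18.2 CPM to 72.0 and 68.8 CPM and was at 41.1 and 42.5 CPM on day 5. STAG2 (18.1 and 17.5 CPM to 62.6 and 57.6 CPM) and the cohesin loader NIPBL (17.4 and 16.6 CPM to 43.7 and 41.3 CPM) rose as well, and so did the condensin subunit SMC4 (1.10 ± 0.11, edgeR adjusted p = 1.31e-07). ESPL1, separase, the protease that securin restrains, fell from 6.0 and 6.70 CPM to 1.79 and 2.16 CPM.

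Other genes of the same phases were mostly lower too. Of 31 tested other spindle, G2 and cytokinesis genes, 22 fell and 4 rose by day 2 (median log2 fold change -1.43), and 20 fell and 1 rose by day 5 (median -0.80). GTSE1, a G2 regulator, went from 5.25 and 6.56 CPM to 0.458 and 0.223 CPM and back to 2.52 and 3.11 CPM, and TACC3, a spindle coiled-coil protein, from 24.6 and 22.7 CPM to 4.58 and 4.46 CPM and back to 12.2 and 11 CPM. CIT, citron kinase of the midbody, went from 13.0 and 14.5 CPM to 2.29 and 2.27 CPM and to 5.40 CPM in both day 5 libraries. MELK, a kinase of dividing cells, fell mainly after day 2, with 12.1 and 10.9, then 9.75 and 8.89, then 1.98 and 1.86 CPM (log2 fold change -2.28 ± 0.17 from day 2 to day 5, edgeR adjusted p = 3.77e-09). FBXO5, EMI1, an inhibitor of the anaphase promoting complex, was the 1 gene of this list above day 0 on day 5, at 5.52 and 7.37 CPM against 3.47 and 2.65 CPM; it was named after its values were seen.

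Most genes of DNA replication and the G1/S step fell, 24 of 30 by day 2 with 3 higher (median log2 fold change -1.41) and 19 of 30 by day 5 with 1 higher (median -1.04). UHRF1, which guides maintenance methylation, fell from 31.7 and 33.8 CPM to 1.5 and 1.97 CPM, and RRM2, the regulated subunit of ribonucleotide reductase, from 24.0 and 24.9 CPM to 5.50 and 5.66 CPM. MCM3 of the replicative helicase came back in part, with 29.3 and 30.7, then 9.66 and 10.6, then 22.8 and 19.7 CPM, and MCM5 did not, with 18.3 and 18.8, then 4.71 and 5.36, then 4.20 and 4.09 CPM. PCNA, the sliding clamp, which also serves in repair, rose from 52.5 and 51.6 CPM to 65.0 and 66.4 CPM and 87.9 and 85.7 CPM.

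**Figure D5:**
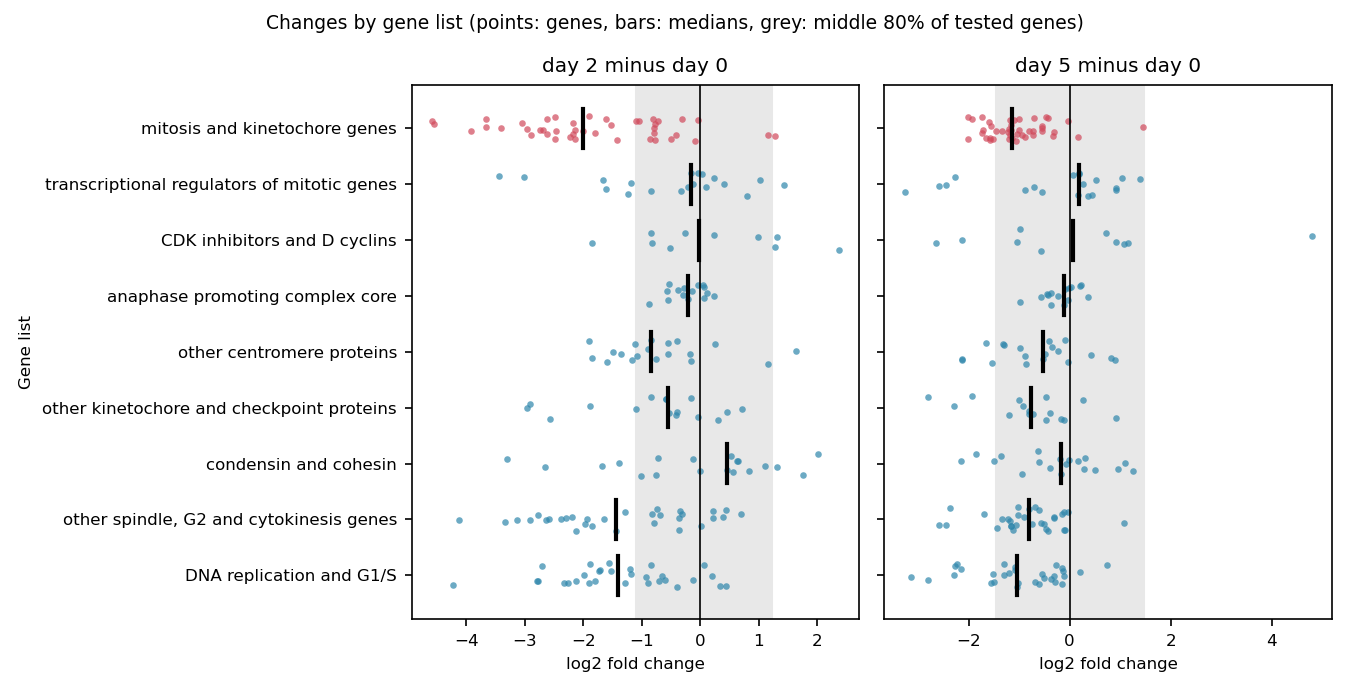
The log2 fold change of each gene of the 43 (red) and of 8 lists of related genes (blue) for day 2 and day 5 against day 0; black bars are list medians and the grey band holds the middle 80% of all tested genes. The 43 have medians of -2.0 and -1.14, the spindle and replication lists lie nearest to them, and condensin and cohesin spread to both sides of 0 on day 2.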

How the data were processed

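The authors deposited 1 table of expected counts per gene and library, already summed from their reads and not normalized, with gene names and lengths, per the file headers; 87.18% of its values were whole. GRCh38 is the build (per the submitters' processing notes). What aligned and counted the reads, on which annotation release and with which strand setting, is not given in the sources used here. Gene lengths as deposited, in bases, served only for levels per kilobase, and 3 mean columns of the authors were not used. Counts were rounded, and 172 genes without a name (0.0356% to 0.0475% of counts) were left out. edgeR 4.0.16 (R 4.3.3) fitted 16327 genes that passed filterByExpr (minimum count 10, total 15) over all 6 libraries with TMM factors, the day as group and 3 residual degrees of freedom; its quasi-likelihood test gave log2 fold changes, standard errors (the change over the root of F) and Benjamini-Hochberg adjusted p-values over all tested genes, called under 0.05. The estimated coefficient of variation between libraries was 3.33%, and counts of the 2 libraries of a day differed by more than sampling noise (chi-square per degree of freedom 2.31 to 2.43). Count totals per library ran from 17599504 to 27941919.

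Alternatives were DESeq2 1.42.0, limma-voom 3.58.1, other scalings and filters, fewer libraries, a replicate block and a test for more than 2-fold. Coordinates are from GENCODE release 29 (43 of 43 matched) and promoters from RefSeq (GRCh38.p14). A total of 18 of the 43 genes share exon bases with another gene, 15 on the other strand, and overlaps over 10% are given beside the gene.

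The 43 genes and the other lists were chosen with earlier results of these data known, so no list was tested as a set. Named genes were 13 standard markers (MKI67, CCNB1, CDK1, PLK1, AURKB, BUB1, NDC80, CENPA, BIRC5, PTTG1, CDC20, UBE2C and TOP2A), the 4 largest and 4 smallest changes, genes unlike most, and from each other list a fixed set of regulators and up to 4 genes of lowest adjusted p; the rest of the 43 were added so that each is accounted for.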

Additional observations from a re-analysis of the deposited data

How the results depend on the processing

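Of 129 results (43 genes in 3 comparisons), 65 kept their side of the threshold in every alternative that gave a value (53 in all 16, the others in 14 or 15). Of these, 9 that did not pass in any changed sign between alternatives, among them MAD2L1 in each comparison. No called result of the 43 changed sign. Over all alternatives, 1915 single values kept their side of the threshold, 116 lost a call (57 of them in the test for a change above 2-fold) and 10 gained one. Scaling to library totals moved the median of all tested genes by -0.18 on day 2 and -0.21 on day 5 against day 0 and the split of calls from 5455 lower and 5457 higher to 6902 and 4249 (day 2) and from 5566 and 5839 to 6899 and 4415 (day 5); under it the medians of the 43 were -2.18 and -1.35, and RBBP4 changed from 0.03 to -0.16 on day 2 (edgeR adjusted p = 0.00371). The median of the 43 from day 0 to day 2 was -1.89 with limma-voom and -1.71 when CPM of at least 1 in 4 libraries was asked for, which left 36 of the 43; that filter gave -1.06 from day 0 to day 5 and 0.53 from day 2 to day 5. The day 5 median against day 0 was -1.18 with DESeq2 and with RLE factors, -1.17 without IGFBP5 and -1.19 with no count filter.

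The test for more than 2-fold called 0 of the 43 higher on day 2, and 10 lower on day 5 against day 0, and 1 lower and 11 higher from day 2 to day 5. With single libraries left out, the medians ranged from -2.0 to -1.86, from -1.15 to -1.04 and from 0.55 to 0.66, and the counts from 34 to 37 lower and 2 to 2 higher (day 2), 30 to 35 lower and 1 higher (day 5), and 5 to 8 lower and 18 to 23 higher (day 2 to day 5; 5 lower without day 2 replicate 2 or day 5 replicate 2).

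Libraries of the same number did not deviate together (correlations of 0.046, 0.029 and 0.049 over 11059 genes), so they share only a number. With the replicate as a block the call of CENPK from day 2 to day 5 was lost (edgeR adjusted p = 0.066), and no other call among the 43 changed. Depth limits the genes under 1 CPM on day 2, where levels rest on a few counts.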
